A study of Mus musculus with 16 samples.

Results

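Soat1 and 5 other genes of cholesterol ester handling, Soat2, Lipa, Npc1, Npc2 and Stard4, were followed through 16 organoid lines grown from mouse pancreatic ductal adenocarcinoma. The 6 genes were taken by symbol from 55487 genes listed, and all 6 were among the 15573 genes with enough counts to be tested. Organoids are three-dimensional epithelial cultures, here kept in domes of Matrigel, a basement membrane gel, in a medium with EGF, FGF-10, noggin, gastrin, R-spondin and the TGF-beta receptor inhibitor A83-01. The donors were 6 C57BL6/J mice of the KPC model of pancreatic cancer, a genetically engineered model that relies on Cre recombinase in the pancreas. Every line therefore came from a cancer of this model, and none from normal pancreas. Alleles, age and sex were not given in the labels.

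There were 9 lines from metastases and 7 from primary tumors, called metastasis and tumor lines here. Mouse 1 gave line M1 from a liver metastasis and tumor line T3. Mouse 2 gave M3P from the peritoneum and T6, mouse 3 gave M6 from the peritoneum and T19, and mouse 4 gave M10 from the peritoneum and T23. Mouse 5 gave M15 from the diaphragm, M16 from the lung and T34. Mouse 6 gave M28 from the liver, M29 from the diaphragm, M30 from the ovary and the tumor lines T69a and T69b. Each line was sequenced once, so the spread between lines is the error used throughout, and lines of the same mouse are not separate animals.

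Cells hold little free cholesterol outside their membranes, and store the excess as cholesteryl esters in lipid droplets. In the endoplasmic reticulum, Soat1 (also called ACAT1) joins cholesterol to a fatty acid in most tissues, and Soat2 does so mainly in intestine and liver. Esters that arrive with lipoproteins are split in lysosomes by Lipa, the lysosomal acid lipase. Npc2 picks up the freed cholesterol and hands it to the membrane protein Npc1, which lets it leave the lysosome, and Stard4 carries sterol between membranes in the cytosol. SREBP2, the sterol-sensing transcription factor, drives Stard4 together with the genes of cholesterol synthesis.

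Expected counts per library, the estimated reads assigned to genes, totalled 24624420 to 49965492. Levels are given as CPM, which are counts relative to the scaled library size, unless TPM, which also corrects for gene length, is named. Of the tumor lines, T69a stood apart. It exceeded the other 6 tumor lines in 27.7% of all genes tested, and in all 6 of the genes described here. The summed level of 20 target genes of p53 was 473 to 720 CPM in metastasis lines, 771 CPM in T69a and 1620 to 2327 CPM in the other tumor lines. In M15 and T6, 3 genes that collect ribosomal RNA reads held 72.7% and 29.9% of all counts, against 18.5% or less in the other lines. Results are therefore given also without T69a and without M15 and T6. The ribosomal share also went with stage, with a median of 12.3% in metastasis lines and 0.272% in tumor lines. Leaving out M15 and T6 does not remove that difference. Epithelial marker genes summed to 4383 to 8960 CPM in metastasis lines and 4176 to 6332 CPM in tumor lines.

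Soat1 was higher in metastasis lines than in tumor lines. Its level ran from 141 CPM in M1 through a median of 192 CPM to 290 CPM in M10 among the 9 metastasis lines. Among the 7 tumor lines it ran from 30.1 CPM in T19 through a median of 45.8 CPM to 186 CPM in T69a. Every metastasis line thus exceeded 6 of the 7 tumor lines, and only T69a reached into the metastasis range. Such a gap between the 9 metastasis lines and the 6 tumor lines other than T69a was found in 3.11% of all genes tested. A gap to all 7 tumor lines was found in 0.36%, and Soat1 was not among them.

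Mean Soat1 was 199 ± 43.3 CPM in metastasis lines (SD, n = 9) and 66.5 ± 54.2 CPM in tumor lines (SD, n = 7). Without T69a the tumor mean was 46.6 ± 13.4 CPM (SD, n = 6). In a fit with a term for each mouse, the log2 fold change was 1.72 (SE 0.28, 95% interval 1.11 to 2.33), a 3.29-fold difference, with an adjusted p of 0.00443 in edgeR's quasi-likelihood test. The same test called 2571 of 15573 genes, or 16.5%, and called 1026 of them, 6.59% of those tested, higher in metastasis lines and 1545, or 9.92%, lower. Soat1 ranked 265 by size among the 1026. Of the 6 genes, Soat1 alone passed. Without T69a its log2 fold change was 2.06 (adjusted p = 7.26e-06), without M15 and T6 it was 1.59 (adjusted p = 0.0339), and without all 3 it was 2.01 (adjusted p = 0.000289).

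**Figure D1:**
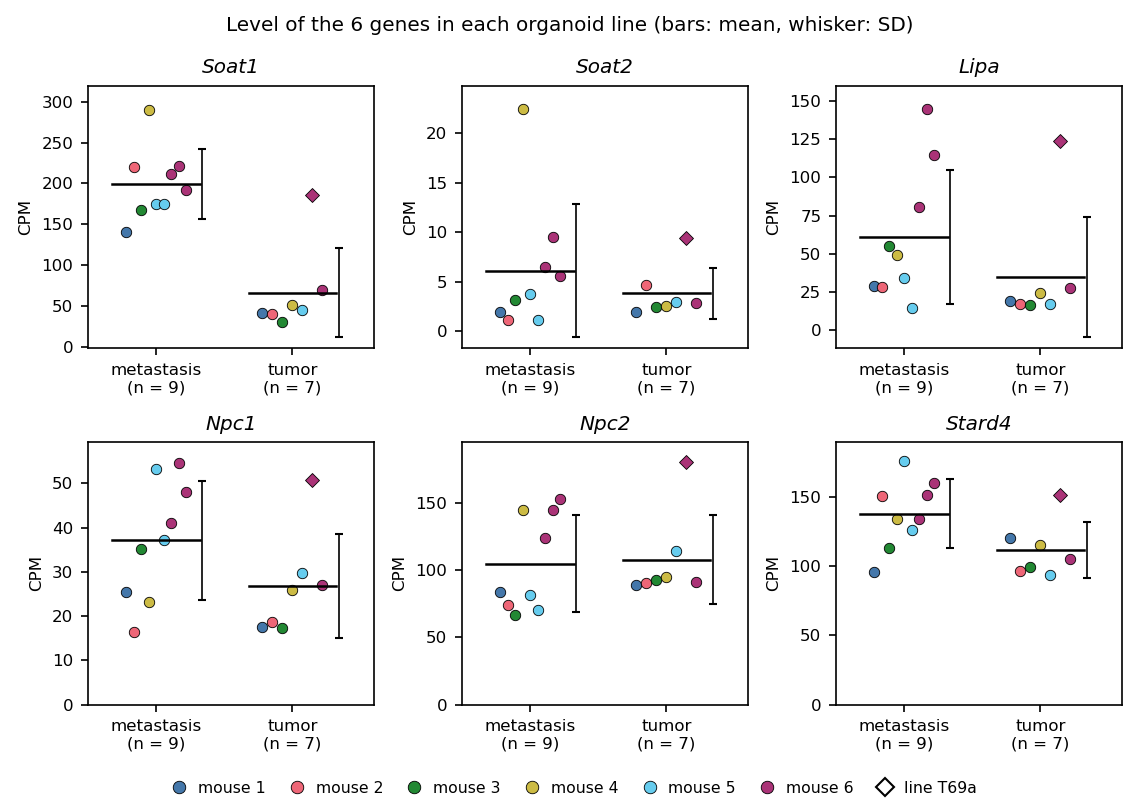
Level of each of the 6 genes in CPM (vertical axes, linear), 1 point per organoid line, coloured by mouse, with metastasis lines left of tumor lines; horizontal bars are means, whiskers are the SD over lines, and the diamond is tumor line T69a. All 9 Soat1 points of metastasis lines lie above 6 of the 7 tumor points, and the other 5 genes show overlapping groups.

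Within mice the direction was the same each time. The metastasis line minus the tumor line on the log2 CPM scale was 1.77 in mouse 1, 2.43 in mouse 2, 2.48 in mouse 3 and 2.49 in mouse 4. In mouse 5, whose 2 metastasis lines stood at 175 and 174 CPM against 45.8 CPM in T34, the mean difference was 1.93. Mouse 6 had the smallest difference, 0.87, over the mean of its 2 tumor lines. M28, M29 and M30 had 212, 222 and 192 CPM, against 186 CPM in T69a and 69.8 CPM in T69b. They were thus 2.74 to 3.17 times the level of T69b and 1.03 to 1.19 times that of T69a. The mean over mice was 1.99 ± 0.63 (SD, n = 6), higher in 6 of 6 mice, with p = 0.03125 in an exact two-sided sign-flip permutation test, the smallest value that 6 mice allow. Genes with the same direction in all 6 mice all reach it, and 12.2% of all genes tested were higher and 13.7% lower in all 6. Soat1 was higher in every metastasis line than in every tumor line of its own mouse, a pattern shown by 1.84% of all genes tested.

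**Figure D2:**
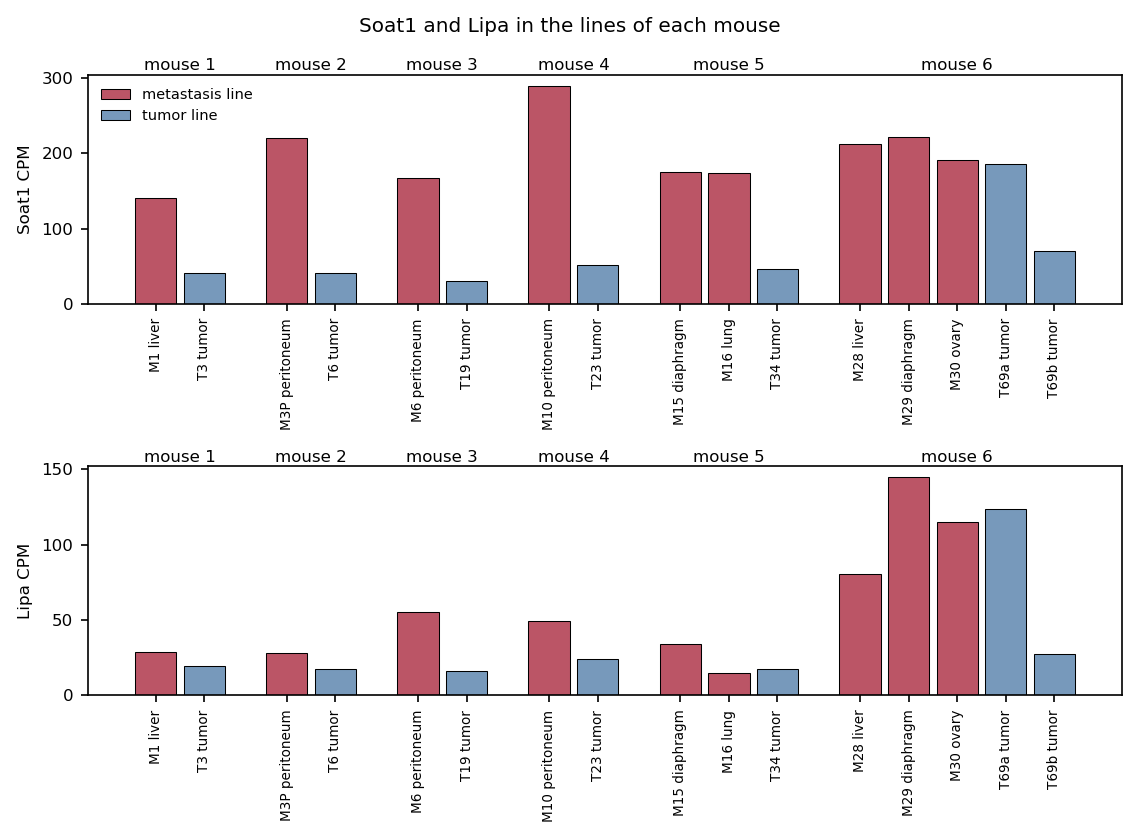
Soat1 (top) and Lipa (bottom) in CPM in every line, grouped by mouse, with metastasis lines in red left of tumor lines in blue and the site under each bar; there is 1 library per bar and no error bar. In mouse 6 the tumor line T69a reaches 186 CPM of Soat1 and 124 CPM of Lipa, close to the metastasis lines of that mouse, and T69b stays at 69.8 and 27.6 CPM.

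By site, Soat1 was above the tumor level in each of the 5 organs, with wide errors. The 3 peritoneal lines had 168, 221 and 290 CPM, the 2 diaphragm lines 175 and 222 CPM, the 2 liver lines 141 and 212 CPM, the lung line 174 CPM and the ovary line 192 CPM. These ranges overlapped. Relative to tumor lines, with mouse in the fit, the log2 fold change was 2.47 (SE 0.40) for peritoneum and 1.61 (SE 0.62) for lung. It was 1.35 (SE 0.43) for diaphragm, 1.25 (SE 0.43) for liver and 0.83 (SE 0.51) for ovary. M28, M29 and M30, from liver, diaphragm and ovary, came from mouse 6, so T69a is part of their baseline. The ovary line M30 had 2.74 times the Soat1 level of T69b and 1.03 times that of T69a. These site values are given with T69a only, so their order is not read as an order of sites. The peritoneal difference passed the threshold on its own in edgeR (adjusted p = 0.0479), a test that called 1.1% of all genes. This value lies close to the threshold and was not refitted under other settings. None of the other sites passed, with edgeR adjusted p of 0.58 for liver and 0.67 for diaphragm. The 5 sites did not differ detectably from each other in Soat1 (edgeR adjusted p = 1.00). That test called 0 of 15573 genes, or 0.0%, while 266 genes, or 1.71%, passed 0.05 before adjustment, and DESeq2 called 47. Mice 2, 3 and 4 gave peritoneal lines only, so the site and the mouse of these lines cannot be told apart, and lung and ovary had 1 line each. Between mice, after stage, Soat1 had an edgeR adjusted p of 0.377, in a comparison that called 24 genes or 0.154%.

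Soat1 lies on the minus strand at chr1:156424525-156474331 of GRCm38, and Lipa on the minus strand at chr19:34492318-34527474. Both exceeded the tumor lines of the same mouse on average in 6 of 6 mice, a pattern held by 12.2% of all genes tested, while 13.7% were lower in all 6 mice. Their RefSeq promoter windows (GRCm38.p6, 300 bases around the annotated start) are shown for this reason, with chr1:156474279-156474578 for Soat1 and chr19:34527425-34527724 for Lipa, both minus strand and written 5′ to 3′. Capitals mark a CCAAT box (CCAAT) and a GC box (GGGCGG), read on either strand.
Soat1 promoter: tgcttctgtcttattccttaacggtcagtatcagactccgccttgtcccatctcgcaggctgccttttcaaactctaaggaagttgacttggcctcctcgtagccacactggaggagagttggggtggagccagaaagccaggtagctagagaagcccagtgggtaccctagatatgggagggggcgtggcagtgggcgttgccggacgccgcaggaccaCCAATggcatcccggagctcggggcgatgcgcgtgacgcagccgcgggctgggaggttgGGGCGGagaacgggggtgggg
Lipa promoter: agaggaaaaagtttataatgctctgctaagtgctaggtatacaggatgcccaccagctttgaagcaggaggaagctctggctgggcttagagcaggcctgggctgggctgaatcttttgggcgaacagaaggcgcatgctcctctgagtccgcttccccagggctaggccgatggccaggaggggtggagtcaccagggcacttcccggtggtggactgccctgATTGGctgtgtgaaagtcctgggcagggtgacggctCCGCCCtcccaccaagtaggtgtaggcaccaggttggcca
Each window holds 1 CCAAT box and 1 GC box, motifs found in 37.4% and 35.7% of all 32851 RefSeq mouse promoter windows of this length. Neither holds the sterol regulatory element TCACNCCAC, present in 1.24% of all windows, the lysosomal gene element TCACGTGA, present in 0.974%, or the E-box CACGTG that it contains, present in 7.15%. The window of Npc2, on chromosome 12, holds 2 CCAAT boxes, 3 GC boxes and none of the other motifs. Promoter windows were read for these 3 of the 6 genes only, and those of the other genes are not reported here. The motif counts therefore say nothing of Stard4.

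Soat2, the second enzyme that esterifies cholesterol, was low throughout. Its level ran from 1.16 CPM in M16 through a median of 3.75 CPM to 22.5 CPM in M10 among metastasis lines. In tumor lines it ran from 1.95 CPM in T3 through a median of 2.89 CPM to 9.39 CPM in T69a. Apart from M10, the groups covered the same range. The log2 fold change was 0.16 (SE 0.49, 95% interval -0.90 to 1.23, adjusted p = 0.847), which leaves room for a change in either direction. Between mice the difference ran from -1.94 in mouse 2 to 3.13 in mouse 4, and it was positive in 4 of 6. Without M10, metastasis replicate 3, the estimate turned to -0.18. The expected count of Soat2 was 29 in the lowest library and 946 in the highest.

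Soat1 and Soat2 are homologous, and their reads could be confused where the coding sequences match. The coding sequence of Soat1-201 is 1623 bases long and that of Soat2-201, from the plus strand of chromosome 15, is 1578 bases long. They are identical at 60.3% of 1561 aligned bases. The longest run that both share is 16 bases, in capitals below with its surroundings (GENCODE M21 transcripts, 5′ to 3′).
Soat1 coding bases 494 to 599: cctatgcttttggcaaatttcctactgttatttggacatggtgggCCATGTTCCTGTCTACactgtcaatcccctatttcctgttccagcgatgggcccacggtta
Soat2 coding bases 467 to 572: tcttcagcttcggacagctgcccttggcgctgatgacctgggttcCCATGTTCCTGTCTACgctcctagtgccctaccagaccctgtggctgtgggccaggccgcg
At no point do the 2 coding sequences share a run longer than this. By TPM, Soat1 made up 90.9% to 99.2% of the Soat1 and Soat2 total in metastasis lines (median 97.5%) and 84.1% to 94.97% in tumor lines (median 94.1%).

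Lipa, which frees cholesterol from esters in the lysosome, was highest in lines of mouse 6, and its stage difference did not pass the test. Its level ran from 14.8 CPM in M16 through a median of 49.0 CPM to 145 CPM in M29 among metastasis lines. In tumor lines it ran from 16.3 CPM in T19 through a median of 19.2 CPM to 124 CPM in T69a. The 4 highest lines were M29, T69a, M30 and M28, all from mouse 6, with 145, 124, 115 and 80.3 CPM. That these 4 lines exceeded all the other 12 was seen in 3.74% of all genes tested. T69b, also from mouse 6, had 27.6 CPM.

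The log2 fold change of Lipa was 0.78 (SE 0.30, 95% interval 0.13 to 1.43) and did not pass the adjustment over all genes (edgeR adjusted p = 0.0900). Lipa passed 0.05 before adjustment, as did 33.6% of all genes tested. It was positive in 6 of 6 mice, from 0.36 in mouse 5 to 1.75 in mouse 3, with a mean of 0.89 ± 0.48 (SD, n = 6, exact sign-flip permutation p = 0.03125). Every gene with the same direction in all 6 mice reaches this p. Of all genes tested, 12.2% were higher and 13.7% lower in all 6. In 3 metastasis lines Lipa was below a tumor line of the same mouse. M16 had 0.842 times the level of T34, and M28 and M30 had 0.649 and 0.928 times that of T69a. Whether Lipa was called turned on T69a, on mouse 6, on the tool and on how lines were combined. Without T69a the log2 fold change was 1.10 (adjusted p = 0.0129), and without mouse 6 it was 0.91 (adjusted p = 0.0465). Without M15 and T6 it was 0.70 (adjusted p = 0.243). With all lines kept, DESeq2 gave 0.79 (adjusted p = 0.0344), and edgeR on counts summed per mouse and stage gave 0.78 (adjusted p = 0.0407). Between mice, after stage, Lipa passed 0.05 only before adjustment (edgeR adjusted p = 0.106), as did 17.1% of all genes tested.

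**Figure D3:**
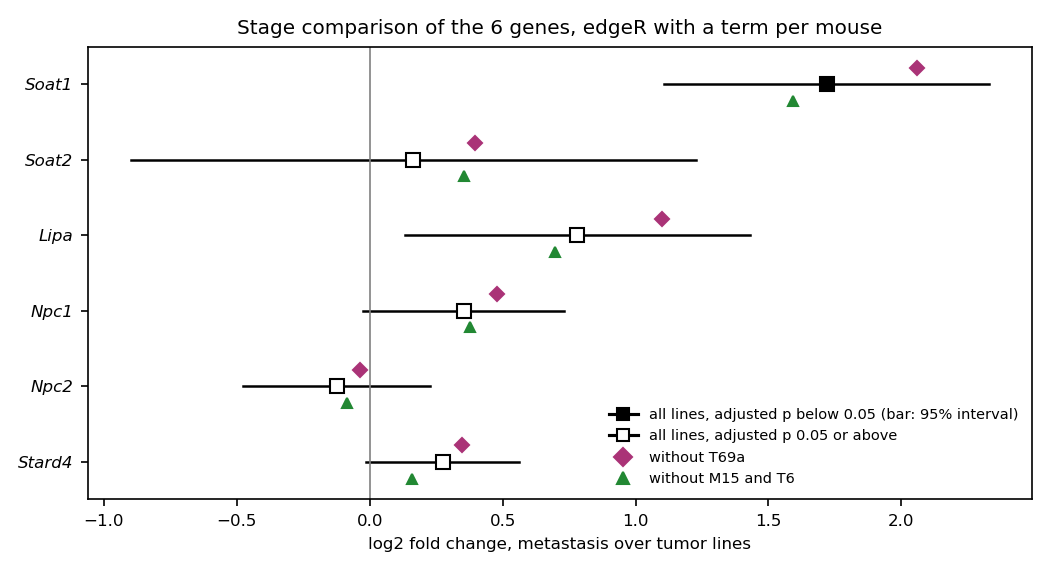
Log2 fold change of metastasis over tumor lines for the 6 genes (horizontal axis) with all lines (squares, bars are 95% intervals, filled where the adjusted p is below 0.05), without T69a (diamonds) and without M15 and T6 (triangles). The interval of Soat1, 1.11 to 2.33, lies clear of 0, that of Lipa starts at 0.13, and those of the other 4 genes include 0.

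Of the lysosomal export pair, neither gene passed the stage test. Npc1, the membrane protein, ran from 16.4 CPM in M3P through a median of 37.1 CPM to 54.5 CPM in M29 among metastasis lines. In tumor lines it ran from 17.2 CPM in T19 through a median of 26.0 CPM to 50.9 CPM in T69a. The groups overlapped over most of their range. The log2 fold change was 0.35 (SE 0.17, 95% interval -0.02 to 0.73, adjusted p = 0.175), positive in 4 of 6 mice. M3P and M10, from the peritoneum of mice 2 and 4, stood at 0.877 and 0.894 times their own tumor lines.

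Npc2, the soluble carrier, ran from 66.3 CPM in M6 through a median of 83.7 CPM to 153 CPM in M30 among metastasis lines. In tumor lines it ran from 88.7 CPM in T3 through a median of 92.9 CPM to 180 CPM in T69a. Tumor lines other than T69a lay close together, at 95.5 ± 9.49 CPM (SD, n = 6), while metastasis lines fell on both sides of them. The log2 fold change was -0.12 (SE 0.16, 95% interval -0.48 to 0.23, adjusted p = 0.625), positive in 2 of 6 mice. M10 and the 3 metastasis lines of mouse 6 had 124 to 153 CPM, and the other 5 metastasis lines had 66.3 to 83.7 CPM. This grouping was read from the values themselves and was not tested.

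Stard4, the cytosolic sterol carrier, did not pass the stage test. It ran from 96.0 CPM in M1 through a median of 134 CPM to 177 CPM in M15 among metastasis lines. In tumor lines it ran from 93.8 CPM in T34 through a median of 105 CPM to 152 CPM in T69a. Most metastasis lines stood above the tumor median, and M1 stood below it. The log2 fold change was 0.27 (SE 0.13, 95% interval -0.02 to 0.56, adjusted p = 0.169), positive in 5 of 6 mice. In mouse 1, the exception, M1 had 0.797 times the level of T3.

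In T69a each of the 6 genes was above the level of T69b, the other tumor line of that mouse. The ratio of T69a to T69b was 4.49 for Lipa, 3.25 for Soat2, 2.67 for Soat1, 1.97 for Npc2, 1.89 for Npc1 and 1.44 for Stard4. Of all genes tested, 47.8% were higher in T69a than in T69b. A ratio as large as that of Lipa was found in 2.94% of all genes tested, one as large as that of Soat1 in 6.78% and one as large as that of Stard4 in 22.4%. The part of the low p53 target level of T69a in these ratios was not tested.

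The change of Soat1 was set against that of each other gene within mice, in 5 comparisons. The log2 change of Soat1 exceeded that of Npc2 by 2.11 ± 0.81, that of Stard4 by 1.72 ± 0.66 and that of Npc1 by 1.63 ± 0.84 (SD, n = 6 mice each), in 6 of 6 mice. Each had p = 0.03125 in the exact sign-flip permutation test, and 0.0521 after Benjamini-Hochberg adjustment over the 5, which misses the threshold of 0.05. That p is the smallest that 6 mice allow, and it passes this adjustment only where more of the 5 comparisons reach it than did here. Soat1 itself rose in 6 of 6 mice, so its excess over genes that changed little largely restates that rise. The excess over Soat2 was 1.74 ± 1.72 and that over Lipa 1.10 ± 0.66 (SD, n = 6), each in 5 of 6 mice, with exact permutation p of 0.0938 and 0.0625 (adjusted 0.0938 and 0.0781). Mouse 4 was the exception for Soat2 and mouse 6 for Lipa.

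Levels can be compared between genes by TPM. Soat1 had the highest TPM of the 6 genes in all 9 metastasis lines and in T69a. In the other tumor lines Stard4 was highest in 4 and Npc2 in 2. Soat2 was the lowest of the 6 in 15 of 16 lines, with M10 the exception. The TPM ratio of Soat1 to Npc2 was 1.51 to 3.17 in metastasis lines, against 1.36 in T69a and 0.344 to 0.873 in the other tumor lines. The ratio of Soat1 to Stard4 was 1.49 to 3.00 in metastasis lines, against 1.57 in T69a and 0.333 to 0.799 in the other tumor lines. Relative to both, metastasis lines and tumor lines other than T69a did not overlap. Soat1 alone already separated these lines in CPM, as did 3.11% of all genes tested. The ratios are therefore not a separate result, and the share of other gene pairs with such a gap was not computed. The TPM ratio of Soat1 to Lipa, the enzymes that make and split the ester, was 1.82 to 12.05 in metastasis lines (median 5.67) and 1.81 to 2.72 in tumor lines (median 2.26). M29 and M30 lay within the tumor range, and the other 7 metastasis lines lay above it.

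**Figure D4:**
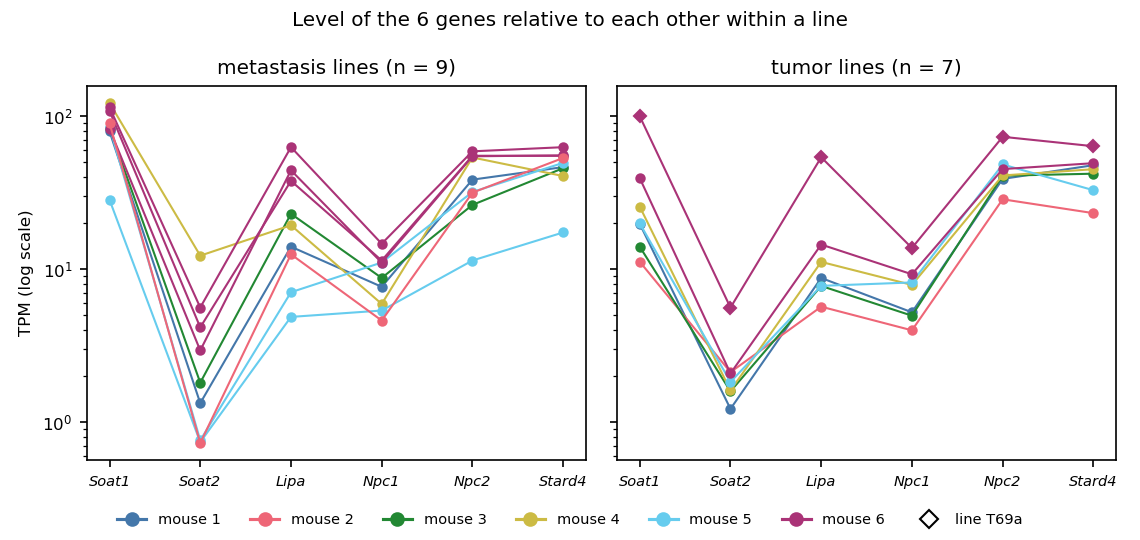
TPM on a log scale (vertical axis) of the 6 genes (horizontal axis) in 9 metastasis lines (left) and 7 tumor lines (right), 1 line of the plot per organoid line, coloured by mouse, with diamonds for T69a. Soat1 is the highest point of every metastasis line and of T69a; the lowest profile on the left is M15, in which ribosomal RNA takes 72.7% of the counts.

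The share of each gene's TPM assigned to single transcripts was compared for 9 transcripts of 5 genes. The share of Soat2 assigned to its main transcript was constant over the lines and was not tested. None differed between metastasis and tumor lines at an adjusted p below 0.05, and 0 of 9 had an exact sign-flip permutation p below 0.05. The smallest p that 6 mice allow passes the adjustment over 9 transcripts only where most of them reach it, so the adjusted count says little. Soat1-201, the main coding transcript, held 57.4% ± 3.54 of Soat1 in metastasis lines (SD, n = 9) and 58.6% ± 5.45 in tumor lines (SD, n = 7). Soat1-206, a model of 366 bases, held 20.4% ± 3.03 in metastasis lines and 19.03% ± 7.72 in tumor lines. Soat1-207, a model of 8371 bases, held 10.6% ± 2.75 in metastasis lines and 12.6% ± 3.26 in tumor lines. The Soat1-207 share was lower in metastasis lines in 5 of 6 mice (exact permutation p = 0.0625, adjusted p = 0.281). Short models such as Soat1-206 gain share from few reads, because the share is corrected for length. Lipa-201, Npc1-201 and Npc2-201 held 89.5%, 81.8% and 86.3% in metastasis lines and 92.0%, 78.8% and 87.4% in tumor lines. Stard4-201 held 61.3% in metastasis lines and 61.5% in tumor lines.

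Other genes of ester storage showed no called change. Of 27 listed genes for making, storing and splitting neutral lipids, 19 had enough counts, and 0 of the 19 passed in edgeR, beside 16.5% of all genes tested. Their median log2 fold change was -0.12, beside -0.02 over all genes tested. Nceh1, which splits cholesteryl esters outside the lysosome, had 27.2 ± 7.36 CPM in metastasis lines and 36.5 ± 7.69 CPM in tumor lines (log2 fold change -0.41, adjusted p = 0.0720). Plin2, a coat protein of lipid droplets, had 18.3 ± 13.04 CPM in metastasis lines and 21.7 ± 5.81 CPM in tumor lines (log2 fold change -0.56, adjusted p = 0.137). For Dgat1 and Dgat2, which make triglyceride, the log2 fold changes were -0.25 and -0.21, at adjusted p of 0.150 and 0.645. None of these passed the test, and they were named for their roles after their values were seen. Larger estimates in the list, also not called, went both ways. They included Ces1d at -2.87 (adjusted p = 0.0653), Plin5 at -1.15 (adjusted p = 0.0508), Abhd5 at -0.65 (adjusted p = 0.0782) and Cidec at 1.51 (adjusted p = 0.255).

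Lysosomal and contact-site transport of cholesterol was represented by 25 tested genes, of which 1 rose and 2 fell, with a median of 0.02. Over all genes tested, 6.59% rose and 9.92% fell, so these counts lie near or below the background. Anxa6, an annexin of endosomes, rose by 0.50 on the log2 scale (adjusted p = 0.0163). Scarb2, a membrane protein of lysosomes, fell by 0.55 (adjusted p = 0.0321), and Osbpl1a, a sterol-binding protein of endosomes, fell by 0.63 (adjusted p = 0.0443). Of 20 tested acid hydrolases of the lysosome, enzymes of the same compartment as Lipa, 0 rose and 2 fell, a share of falls close to the 9.92% of all genes tested. These were Ppt1, a thioesterase, by 0.44 (adjusted p = 0.0240) and Naglu, a heparan sulfate hydrolase, by 0.65 (adjusted p = 0.0489). Tfeb, a transcription factor for lysosomal genes, rose by 0.56 (adjusted p = 0.0496) as 1 of 3 tested regulators. Of 37 alternative settings, the call held in 32 for Anxa6, 20 for Ppt1, 18 for Scarb2, 12 for Osbpl1a, 10 for Tfeb and 9 for Naglu.

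Among 12 tested genes of cholesterol uptake and efflux, 1 rose and 1 fell, with a median of 0.03, near the 6.59% and 9.92% of all genes tested. Apob, the lipoprotein scaffold, averaged 130 ± 158 CPM in metastasis lines and 48.7 ± 103 CPM in tumor lines, where T69a had 281 CPM (log2 fold change 1.86, adjusted p = 0.0280). Mylip, a ubiquitin ligase, had 0.460 ± 0.391 CPM in metastasis lines and 1.77 ± 0.86 CPM in tumor lines (log2 fold change -2.33, adjusted p = 0.0102). The call held in 17 of 37 settings for Apob and in 36 of 37 for Mylip.

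Of 20 genes of the mevalonate and sterol pathway, which makes cholesterol, 3 rose and 0 fell, with a median of 0.19, beside 6.59% and 9.92% of all genes tested. Sqle, squalene epoxidase, rose by 0.49 (adjusted p = 0.0187), Mvk, mevalonate kinase, by 0.34 (adjusted p = 0.0175) and Acat2 by 0.39 (adjusted p = 0.0378). Acat2 here is the cytosolic acetyl-CoA acetyltransferase at the start of the pathway, and is distinct from Soat2, whose protein is also called ACAT2. Of 7 genes that control SREBP, 0 passed in edgeR, and Srebf2, which encodes SREBP2, had a log2 fold change of 0.32 (adjusted p = 0.0535). The call held in 29 of 37 settings for Mvk, 27 for Sqle and 15 for Acat2.

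Macrophages and steroid-making cells are known for much Soat1, so their markers were read beside it. Of 10 macrophage markers, 5 (Adgre1, Tyrobp, C1qa, C1qb and C1qc) had 0 counts in all lines, and the 10 summed to 2.17 to 5.35 CPM in metastasis lines and 1.53 to 4.53 CPM in tumor lines, mostly Cd68. Of 6 steroidogenic markers, Cyp17a1 had 0 counts, and the 6 summed to 1.88 to 5.92 CPM in metastasis lines and 1.53 to 3.42 CPM in tumor lines, mostly Star. Fibroblast markers summed to 0.100 to 0.775 CPM in metastasis lines and 0.0385 to 0.230 CPM in tumor lines, and endothelial markers to 0.156 to 1.71 CPM in metastasis lines and 0.0517 to 0.412 CPM in tumor lines. Hepatocyte markers, mostly Ttr, summed to 0.226 to 6.51 CPM in metastasis lines and 6.65 to 112 CPM in tumor lines. Enterocyte markers, mostly Vil1, summed to 115 to 312 CPM in metastasis lines and 100.9 to 269 CPM in tumor lines. Mesothelial markers, mostly Msln, summed to 308 to 756 CPM in metastasis lines and 164 to 1134 CPM in tumor lines. Vil1 and Msln are also made by pancreatic tumor epithelium. The part of these markers in the Soat1 difference was not tested. In cultures sequenced in bulk, fewer cells of a type and less RNA per cell cannot be told apart.

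Target genes of p53, the tumor suppressor, were lower in metastasis lines. Of 20 listed targets, 15 fell and 0 rose in metastasis lines, beside 9.92% and 6.59% of all genes tested, and their median was -1.35 on the log2 scale. Ccng1, cyclin G1, had 96.2 ± 18.5 CPM in metastasis lines and 649 ± 283 CPM in tumor lines, where T69a had 118 CPM (log2 fold change -2.68, adjusted p = 0.00129). T69a, the tumor line with most Soat1, was thus also the tumor line with the lowest summed p53 target level, 771 CPM. The part of the p53 targets in the Soat1 difference was not tested.

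Genes whose log2 level followed Soat1 most closely over the 16 lines were sought among 8470 named genes with at least 10 CPM on average. They were Arhgap45 (Pearson r = 0.97), Slc23a2, a vitamin C transporter (0.97), Ociad2 (0.96), Plekhf1 (0.95) and Sipa1l2 (0.95). The values were lower within the metastasis lines than over all 16. Within the 9 metastasis lines r was 0.74 for Arhgap45, 0.56 for Slc23a2, 0.54 for Ociad2, 0.36 for Plekhf1 and -0.07 for Sipa1l2. Within the 7 tumor lines it was 0.96 to 0.99, and without T69a 0.88 to 0.93. Within the metastasis lines alone the closest gene was Scamp5 (r = 0.95), which had r = 0.25 in the 6 tumor lines other than T69a. The lines share mice, so these values describe the lines and carry no test.

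The genes beside Soat1 on chromosome 1 were also read. Of 10 tested neighbours, the next 5 on each side by start position, 3 rose and 0 fell, beside 6.59% and 9.92% of all genes tested. Their median log2 fold change was 0.16, while the median of 940 genes tested on the chromosome was 0.02. Gm37648, which overlaps Soat1 on the opposite strand, had a log2 fold change of 1.74 (adjusted p = 0.00682) at 0.531 CPM in metastasis lines and 0.158 CPM in tumor lines. Its counts were 0.164% to 0.418% of those of Soat1, and without a stated strand setting its reads cannot be told apart from those of Soat1. Abl2, a tyrosine kinase, had 87.0 ± 18.3 CPM in metastasis lines and 52.1 ± 7.65 CPM in tumor lines (log2 fold change 0.72, adjusted p = 0.00898), and T69a had 51.8 CPM, within the tumor range. Gm10031 rose by 0.46 (adjusted p = 0.0362), a call that held in 17 of 37 settings. The nearest gene on the other side, Gm2000, had 107 ± 10.8 CPM in metastasis lines and 103 ± 11.03 CPM in tumor lines (log2 fold change 0.07, adjusted p = 0.529).

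**Figure D5:**
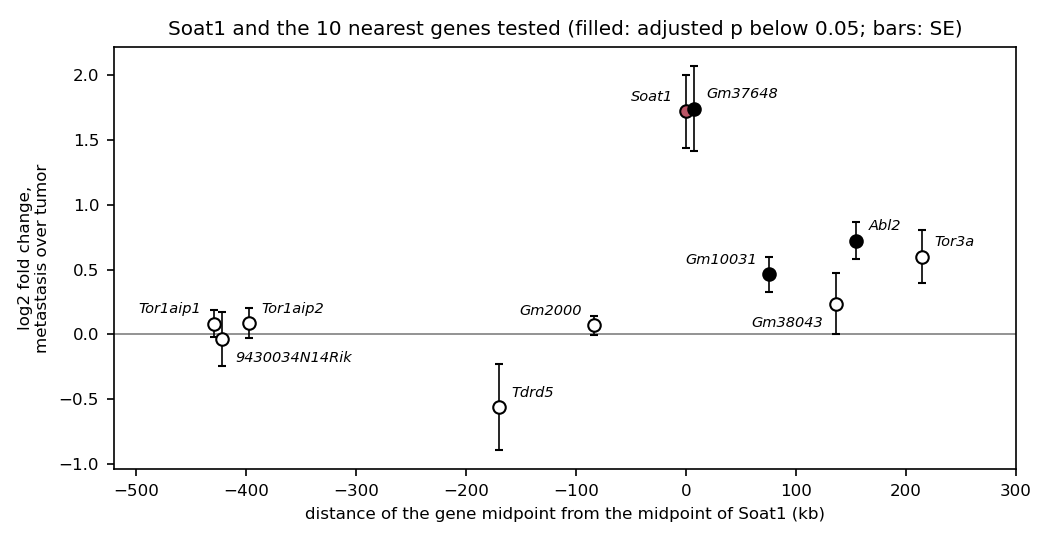
Log2 fold change of metastasis over tumor lines (vertical axis, bars are the SE) of Soat1 and 10 tested neighbours, 5 per side. The horizontal axis is the distance of the gene midpoint from that of Soat1 in kb. Filled points have an adjusted p below 0.05. Soat1 and the overlapping Gm37648 stand at 1.72 and 1.74, and the other 9 genes lie between -0.56 and 0.72.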

How the data were processed

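RNA from 16 organoid lines was sequenced after ribosomal RNA depletion in stranded libraries, per the labels' protocols. Per the submitters' processing notes, FastQC 0.11.8, STAR 2.6.0c and RSEM 1.3.1 were used, with genome build GRCm38.p6. The authors deposited expected counts (estimated reads per gene or transcript), TPM and, for transcripts, the percent of a gene assigned to each, per the file headers. RSEM divides reads among similar sequences by estimate, and the strand setting was not given in the sources used here. Of 55487 gene identifiers, 55394 were matched to GENCODE M21, and no library had more than 0.00356% of its counts in the rest.

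Expected counts were rounded and tested with edgeR 4.0.16 (quasi-likelihood, TMM factors, filterByExpr by stage, terms for mouse and stage, R 4.3.3), and p-values were Benjamini-Hochberg adjusted over 15573 genes with a threshold of 0.05. Where no tool is named, adjusted p-values are those of edgeR. CPM use TMM-scaled library sizes, and log2 CPM a prior count of 2. Sites and mice were compared by F tests, and single values within mice by exact two-sided sign-flip permutation tests over 6 mice. Transcripts were tested where their mean share was at least 10% and no library had fewer than 20 counts of the gene. Each line was 1 library, and no pair was closer than a chi-square of 41.9 per gene, so none was a duplicate within counting noise.

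Lines were paired by the mouse label. Deviations of log2 CPM from the stage means correlated at 0.27 on average between lines of the same mouse and at -0.12 between lines of different mice, with -0.01 to 0.58 for metastasis with tumor lines of 1 mouse.

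Genes were named by rule: the 6 genes, up to 4 called genes of each list, the 5 genes most correlated with Soat1, and 5 neighbours per side. Other genes named were chosen after their values were seen. Some genes are not reported here. The genes, the 17 lists and the tests were chosen with earlier results of these data known. Sequences came from RefSeq promoter windows and GENCODE M21 transcripts.

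Alternatives were no mouse term, mouse as a random effect (limma 3.58.1), RLE size factors, 2 other count filters, DESeq2 1.42.0, limma on log2(TPM + 1) with a pseudocount of 1, summed counts, edgeR's robust option, ribosomal RNA genes or libraries left out or used as a covariate, and each line and mouse left out. Versions with the 3 genes CT010467.1, AY036118 and Lars2, and with T69a, M15 and T6 left out together, were added after seeing the data.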

Additional observations from a re-analysis of the deposited data

Results flagged for a closer look

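Values that stood apart from the rest of their stage were sought with Dixon's test in 30 groups of lines, and 11 were found. Chance flags about 1 in 20 groups, and the groups share lines, so the flags are not independent.

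Line T69a was the highest tumor line by such a gap for 5 of the 6 genes. Whatever the gap, it was the highest tumor line in 27.7% of all genes tested. The share of all genes with a gap of this kind was not computed, so the flags are not read as particular to these genes. T69a had 186 CPM of Soat1, against 30.1 to 69.8 CPM in the other 6 tumor lines. Its Soat2 level was 9.39 CPM, against 1.95 to 4.63 CPM. Lipa reached 124 CPM in T69a, against 16.3 to 27.6 CPM in the others. Npc1 stood at 50.9 CPM, against 17.2 to 29.6 CPM, and Npc2 at 180 CPM, against 88.7 to 114 CPM.

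Among metastasis lines, M10 had 22.5 CPM of Soat2, against 1.16 to 9.50 CPM in the other 8. Lipa-201 held 96.7% of Lipa in M10, against 87.3% to 90.2% in the others.

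Soat1 transcripts were divided unusually in 3 lines. Soat1-201 held 48.7% of Soat1 in M15, against 56.4% to 61.0% in the other metastasis lines, and 70.0% in tumor line T6, against 54.1% to 60.2%. Soat1-206 held 2.92% in T6, against 17.6% to 27.5% in the other tumor lines. Soat1-207 held 16.7% in M3P, against 8.06% to 11.9% in the other metastasis lines. M15 and T6 are the 2 libraries with most ribosomal RNA, and the part of this in the shares was not tested.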

How the results depend on the processing

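Soat1 kept its direction and its call in all 37 alternatives, with log2 fold changes of 1.58 to 2.23 and adjusted p of 1.61e-08 to 0.0339. With no replicate block it was 1.58 (adjusted p = 0.00531), and the block changed no call of the other 5 genes. The number of genes called for stage, 2571, was 2219 with no replicate block, 3968 with DESeq2, 1184 with limma on log2(TPM + 1) (329 higher and 855 lower, against 1026 and 1545), 794 without M15 and T6, and 766 (without mouse 5) to 3910 (without T69a) as single lines or mice were left out. For site it was 0, and 47 with DESeq2. For mouse it was 24, against 565 with no filter on low counts, 1869 with DESeq2 and 4 (without M15 or M16) to 370 (without T69b) with single lines left out. The count for mice therefore rests on the filter, the tool and single lines.

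Lipa passed in 4 of 37 alternatives, namely DESeq2, summed counts (0.78, adjusted p = 0.0407), without T69a and without mouse 6. Npc1, Stard4, Soat2 and Npc2 passed in none. Soat2 turned to -0.0877 and -0.0867 with the ribosomal share as a covariate (first list and 3 genes). With single lines or mice left out it ran from -0.199 (without T23) to 0.449 (without M3P), and was negative also without M10 (-0.182), T69b (-0.0101) and mouse 4 (-0.183). Npc2 turned to 0.0464 without T69a, M15 and T6, and with single lines or mice left out ran from -0.237 to 0.0094 (without mouse 5). On log2(TPM + 1), where the median of all genes was -0.10, the neighbours Tor1aip1, Tor1aip2 and Gm2000 turned to -0.0466, -0.0995 and -0.0890. Tor1aip2 was -0.0317 without M15 and T6, and 9430034N14Rik ran from -0.0885 to 0.106 with single lines or mice left out. The cause of these turns was not tested. Isoform calls were 0 also with shares from expected counts and with a minimum of 5%, but 6 mice leave this test little chance to call any.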
